A study of Homo sapiens with 15 samples.

Results

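The EGF-family ligands were taken as 8 genes, AREG, EREG, TGFA, HBEGF, BTC, EPGN, EGF and NRG1. They were chosen by name, with earlier results of these data known. Of these, 7 were measured, by 31 probe sets annotated to a single ligand, among 18132 genes in all. For AREG no probe set assigned to that gene alone was at hand, so AREG was not analysed here. The samples were 15 established non-small-cell lung cancer (NSCLC) lines, untreated, with 1 Affymetrix PrimeView array each. A line's group in the radiation comparison came from SF2, the fraction of cells that formed colonies after a dose of 2 Gy. By the study's SF2 limit, 8 lines were radioresistant (H1975, A549, HC827, H358, H2228, H3122, H460 and H1650) and 7 were radiosensitive (H520, Calu1, H1437, H226, Calu3, H2009 and H1781), each list running from high to low SF2. HC827 is the line usually written HCC827, and the SF2 of H520 was taken by the study from the literature. The driver classes rest on general knowledge of these lines and not on the sample labels. There were 3 EGFR-mutant lines (H1975, HC827, H1650), 2 ALK-rearranged lines (H2228, H3122), 2 ERBB2-altered lines (Calu3, H1781) and 8 others (A549, H358, H460, H520, Calu1, H1437, H226, H2009), which were not divided further. Both classifications were entangled, since every EGFR-mutant and ALK-rearranged line was radioresistant and both ERBB2-altered lines were radiosensitive. By histology, 9 lines were adenocarcinoma, 3 squamous (H520, Calu1, H226), 2 bronchioloalveolar (H358, H1437) and 1 large cell (H460).

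All of these ligands are made as membrane-anchored precursors, and metalloproteases such as ADAM17 and ADAM10 cut them free. EGF, TGFA and AREG bind EGFR, while HBEGF, BTC and EREG bind both EGFR and ERBB4. EPGN is a low-affinity EGFR ligand, and NRG1 binds ERBB3 and ERBB4. ERBB2 has no known ligand and acts as the partner of the other receptors. In airway and lung cancer cells the ligands are known for autocrine and paracrine signalling through the RAS and MAPK pathway, which in turn raises the transcription of several of them.

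Values are given on the log2 scale, on which 1 unit is a 2-fold change. Every line had a single array, so a difference between 2 lines had no replicate check. A p-value between classes sets the class difference against the spread between lines. Different ligands were read by different probe sets, so the level of each was compared across lines and never with the level of another ligand. A value was called above background where it passed the 95th percentile of 341 olfactory receptor genes, which these cells should not use. That bound lay between 5.30 and 5.66 on the 15 arrays. The olfactory receptor genes had a median SD over the lines of 0.16. The bound is a lenient one, because the endothelial markers PECAM1 (6.153 to 7.004) and VWF (5.82 to 6.51) and the globin gene HBB (6.53 to 7.17) passed it with flat values in all 15 lines. A flat ligand value just above it is therefore no sign of expression.

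Array medians were near equal, at 6.37 to 6.52. The log2 ratio of 3′ to 5′ actin signal was highest in H1781 (2.09) and H3122 (1.90), against 0.63 to 1.30 in the other lines. The labelled cell type was checked with 6 epithelial markers. KRT8, KRT18 and KRT19 were above background in all 15 lines, KRT7 in 14, EPCAM in 13 and CDH1 in 12. KRT7 was below it in H520 (4.20), EPCAM in H460 (4.21) and H226 (4.03), and CDH1 in H460 (3.38), H226 (3.49) and Calu1 (4.33). Of the 9 measured markers of blood, endothelial and stromal cells, PTPRC, CD3E, CDH5 and DCN were above background in 0 lines, and CD14 in 2, with 9.64 in H1437 as the highest value. PECAM1, VWF and HBB were above it in all 15 lines, with flat values, and PDGFRB in 7 (5.29 to 5.88 over the 15 lines). None of the 9 was called between radioresistant and radiosensitive or between EGFR-mutant and other lines (0.546% and 1.3% of all genes were). Line identities were checked with driver genes. ERBB2 was highest in Calu3 (14.09), EGFR in HC827 (13.23) and FGFR1 in H520 (12.05), and ALK passed background in 2 lines, with 6.26 in H2228 as the highest.

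How many ligands a line had above background depended on the bound. With the 95th percentile the count ran from 3 (H3122 and H226) to 7 (H1437), but it held flat values of BTC and NRG1 near those of PECAM1 and HBB. With the 99th percentile of the same genes (6.46 to 6.84), a bound chosen after the data were seen, HC827, H2228, H1437 and Calu3 had 5 ligands each, and H3122, H520 and H1781 had 1, which was TGFA in each. H1975, H358 and Calu1 had 4, and A549, H460, H1650, H226 and H2009 had 3. All 7 ligands varied more across lines than most genes did. The SD of EREG over the 15 lines, 2.93, was larger than that of 99.7% of genes, and BTC, the least variable, at 0.86, was above 81.2%.

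**Figure D1:**
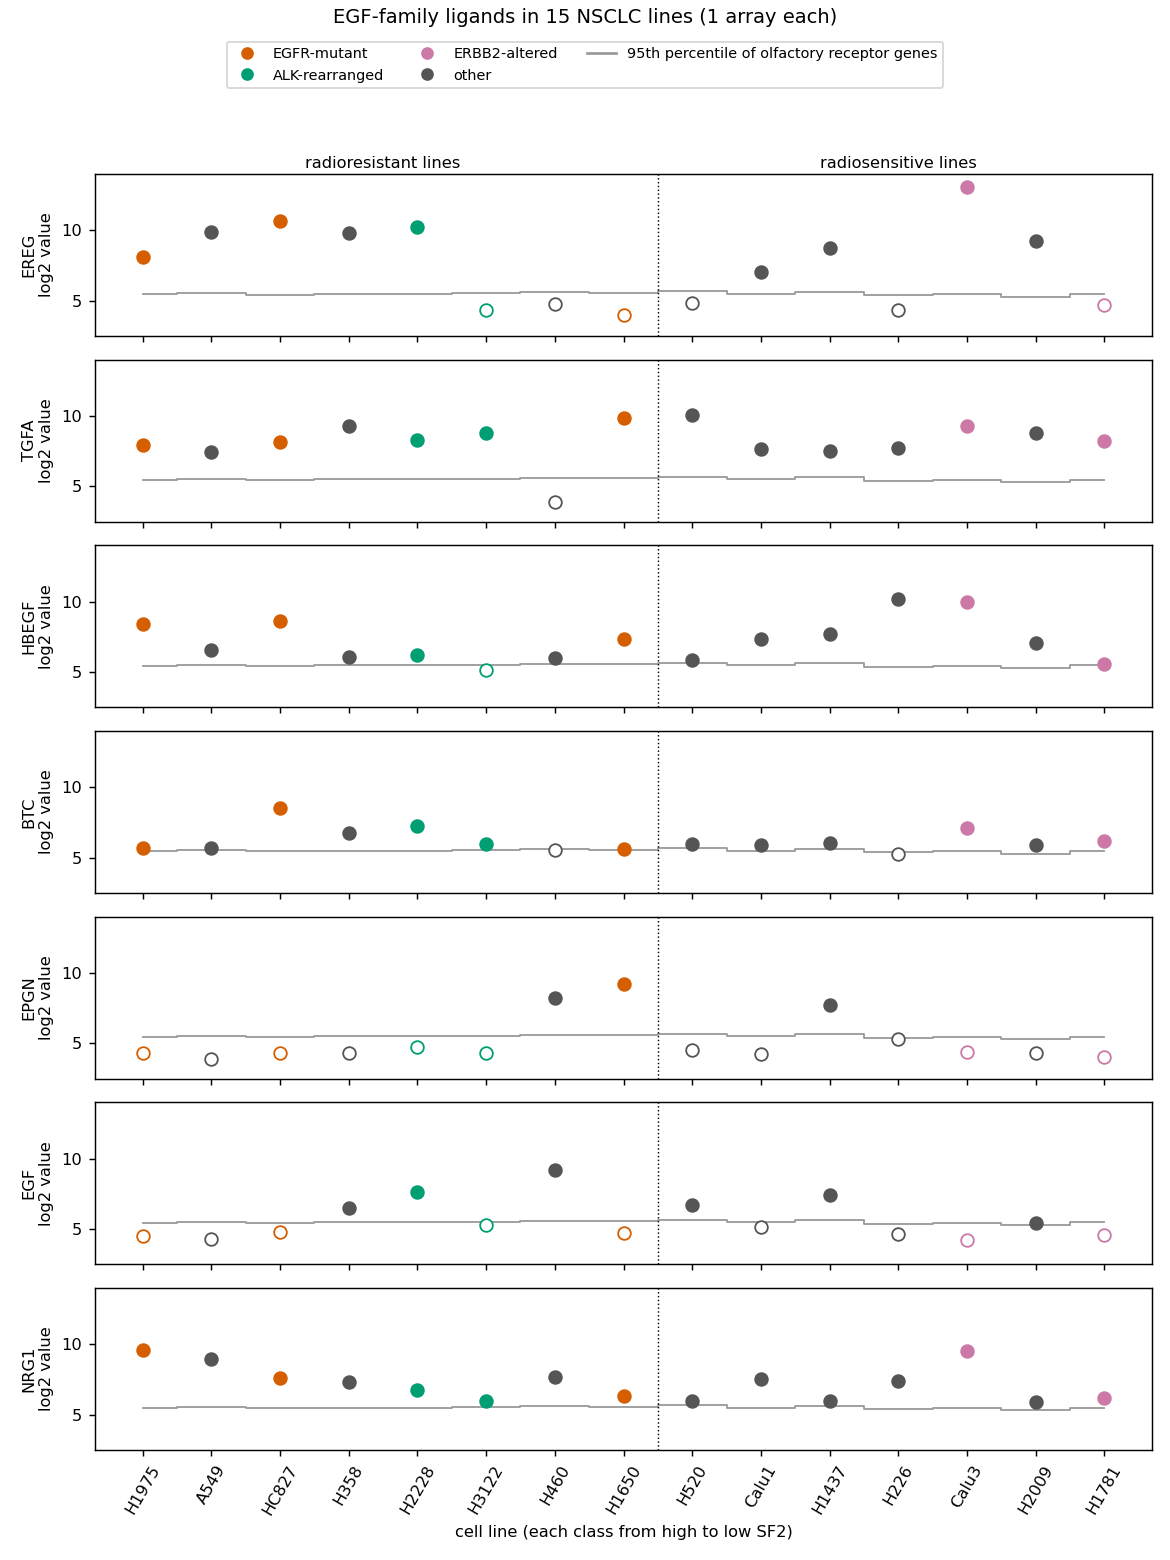
Log2 value of each ligand (rows, brightest probe set) in each of the 15 lines (x axis), with radioresistant lines left and radiosensitive lines right of the dotted line. Colours give the driver class, filled points lie above and open points at or below the grey background bound. EREG splits into 9 lines from 7.01 to 13.08 and 6 lines from 3.99 to 4.81, EPGN stands high in 3 lines, and TGFA is below background in H460.

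EREG, encoding epiregulin, had the widest range of the ligands. It reached 13.08 in Calu3, 10.64 in HC827, 10.26 in H2228, 9.91 in A549 and 9.85 in H358. H2009 had 9.25, H1437 8.74, H1975 8.08 and Calu1 7.01. The remaining 6 lines lay below background, from 4.81 in H520 over 4.74 in H460, 4.70 in H1781, 4.34 in H226 and 4.32 in H3122 to 3.99 in H1650. On this brightest probe set Calu3 was at least 171-fold above the low lines, counted from the highest background bound among them. No line fell between 4.81 and 7.01. Calu3 stood 2.44 above the next line, whereas the lines from HC827 to H358 were spread over 0.80. The order within the low 6 lines, all below background, has no meaning. All 4 EREG probe sets gave the same top 3 lines, and the other sets followed the brightest with r between 0.82 and 0.99 over the 15 lines. From brightest to dimmest the sets had 9, 9, 8 and 3 lines above background. The third set had Calu1 at 4.86, below background, and Calu3 at 10.86, and the fourth had Calu3 at 8.33. The size of the gap and the fold therefore depend on the probe set.

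TGFA, encoding transforming growth factor alpha, was above background in 14 of 15 lines on its brightest probe set. On its 3 dimmer sets the count was 10, 11 and 0. On the brightest set TGFA was highest in H520 (10.07), H1650 (9.86), H358 (9.30) and Calu3 (9.27). The middle of the order was crowded, with H3122 at 8.81, H2009 at 8.78, H2228 at 8.29, H1781 at 8.25, HC827 at 8.15 and H1975 at 7.96. H226 had 7.71, Calu1 7.63, H1437 7.53 and A549 7.45. H460 had 3.89, below its bound of 5.60, so that A549, the next lowest line, was at least 3.60-fold higher. H460 was the lowest line on 3 of the 4 TGFA probe sets, but on the 3 dimmer sets it lay only 0.09 to 0.16 below the next lowest radioresistant line. Apart from H460, the lines thus spanned 2.62 units.

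HBEGF, encoding heparin-binding EGF-like growth factor, which is also the diphtheria toxin receptor, was highest in H226 (10.19) and Calu3 (9.99). HC827 (8.62), H1975 (8.38), H1437 (7.69), Calu1 (7.35), H1650 (7.33) and H2009 (7.09) followed. A549 had 6.58, H2228 6.21, H358 6.06, H460 5.99 and H520 5.83. The lowest 2 lines were H1781 (5.58) and H3122 (5.17), the lines with the highest 3′ to 5′ actin signal, and whether that ratio played a part was not tested. Both HBEGF probe sets put H226 highest and H3122 lowest, and their r was 0.95 over the 15 lines. The second set was above background in only 2 lines, so its lowest line is not a check on the order of the low lines.

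BTC, encoding betacellulin, was high in HC827 (8.55), H2228 (7.24), Calu3 (7.11) and H358 (6.79). The other 11 lines lay between 5.23 in H226 and 6.18 in H1781, no higher than the flat values of PECAM1 and HBB, so their order is not read. Both BTC probe sets had HC827, H2228 and Calu3 as the top 3 lines. The 4 lines highest in BTC were all among the 5 lines highest in EREG.

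EPGN, encoding epigen, was the most restricted. EPGN was above background in H1650 (9.25), H460 (8.22) and H1437 (7.73). H226 (5.30) was just under the bound, and the other 11 lines lay between 3.91 and 4.75. All 8 EPGN probe sets gave the same 3 lines as the top 3, and H226 came next on 7 of the 8.

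EGF, the founding member of the family, was above background in 6 lines. H460 had 9.19, H2228 7.65, H1437 7.44, H520 6.68, H358 6.47 and H2009 5.46, the last barely above its bound of 5.30. The other 9 lines lay between 4.23 in Calu3 and 5.31 in H3122. H460 was the top line on all 3 EGF probe sets.

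NRG1, encoding the ERBB3 and ERBB4 ligand neuregulin 1, passed the bound in all 15 lines on its brightest probe set. On its other sets the count of lines above background ran from 1 to 15, with 11 on the third brightest. H1975 (9.60), Calu3 (9.56) and A549 (8.99) were set apart from the rest. H460 had 7.66, HC827 7.59, Calu1 7.57, H226 7.41, H358 7.32, H2228 6.77, H1650 6.33 and H1781 6.20. The lowest values, between 5.92 and 5.99, were those of H2009, H3122, H520 and H1437, below the flat values of PECAM1 and HBB. The same 3 lines were the top 3 on 6 of the 8 NRG1 probe sets, but their order depended on the probe set. A549 was above H1975 on 5 of the 8 sets and above Calu3 on 4. The difference of A549 minus H1975 ran from -1.08 to 1.24 over the sets. NRG1 has many transcript forms, and the array annotation used here does not say which form each probe set reads. Of the related genes, NRG2 and NRG3 were above background in 0 lines and NRG4 in 1 (H1437, 5.90).

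**Figure D2:**
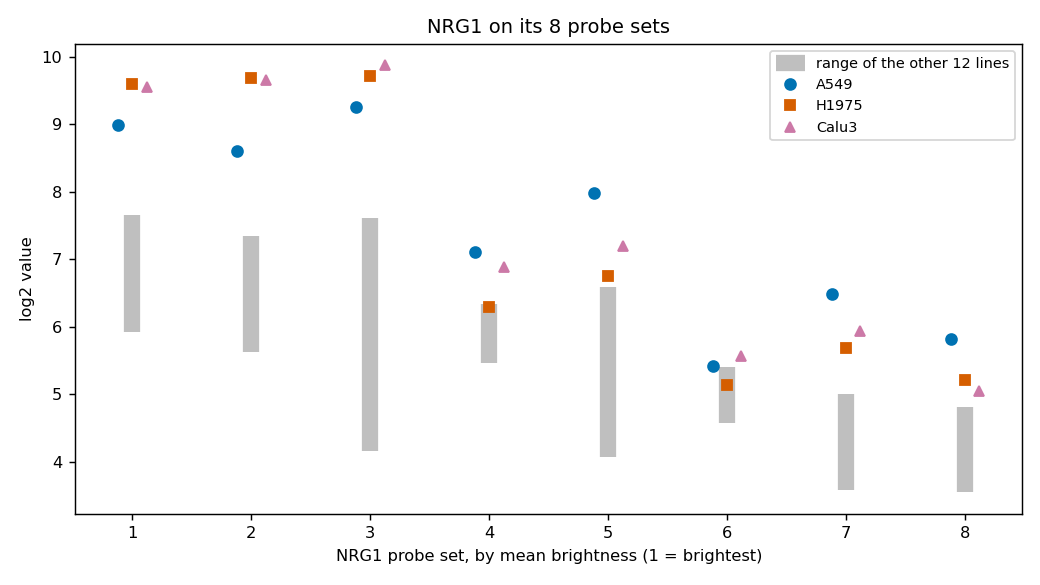
Log2 value of NRG1 in A549, H1975 and Calu3 on each of its 8 probe sets (x axis, from brightest to dimmest), with the range of the other 12 lines as grey bars. On the 3 brightest sets H1975 and Calu3 lie above A549, and on sets 4, 5, 7 and 8 A549 is highest.

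EPGN, EREG, AREG and BTC lie next to one another on chromosome 4, and EGF lies further along the same chromosome. In the RefSeq annotation of GRCh38.p14 the genes EPGN and EREG are 48356 bases apart, and the 4 genes span 486053 bases from the start of EPGN to the end of BTC. TGFA is on chromosome 2 and HBEGF on chromosome 5. The build of the array annotation is not given in the sources used here, so these positions serve to place the genes and no probe. Being neighbours did not mean being high in the same lines. H1650 and H460, the lines highest in EPGN, had 3.99 and 4.74 in EREG, both below background. In H1437 both genes were above background, with EPGN at 7.73 and EREG at 8.74. The other 8 lines with EREG above background had EPGN between 3.91 and 4.75, and H520, H226, H3122 and H1781 had neither. Over the 15 lines the r between EREG and EPGN was -0.39 (Spearman's rho -0.29), while between EREG and BTC it was 0.65 (rho 0.63). These coefficients include the values below background and the low BTC values, so each rho in part ranks values whose order is not read. The promoters of these 3 genes, the 250 bases before the RefSeq start, are shown because the genes are neighbours. The pattern of EPGN over the lines was unlike those of EREG and BTC. The capitals mark matches to TATAAA or CCAAT on either strand.
EPGN (chr4:74308220-74308469, plus strand): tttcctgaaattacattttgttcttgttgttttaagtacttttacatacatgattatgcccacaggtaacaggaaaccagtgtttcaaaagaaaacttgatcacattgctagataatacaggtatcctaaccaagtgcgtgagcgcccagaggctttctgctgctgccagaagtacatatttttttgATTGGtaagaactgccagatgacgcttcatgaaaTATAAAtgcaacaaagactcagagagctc
EREG (chr4:74364895-74365144, plus strand): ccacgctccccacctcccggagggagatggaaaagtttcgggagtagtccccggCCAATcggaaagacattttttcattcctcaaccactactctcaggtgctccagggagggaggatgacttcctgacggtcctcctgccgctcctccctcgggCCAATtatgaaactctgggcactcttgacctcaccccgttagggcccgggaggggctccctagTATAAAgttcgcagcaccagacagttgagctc
BTC (chr4:74794524-74794773, minus strand): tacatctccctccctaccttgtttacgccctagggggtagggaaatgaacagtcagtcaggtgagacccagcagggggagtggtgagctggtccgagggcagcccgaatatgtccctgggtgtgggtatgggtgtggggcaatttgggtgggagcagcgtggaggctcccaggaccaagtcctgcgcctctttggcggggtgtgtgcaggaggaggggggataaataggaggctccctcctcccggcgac
EPGN and EREG each held TATAAA close to the start, 29 and 32 bases before it, and BTC held none in this window. TATAAA was found in 10.7% of 35116 RefSeq promoter windows of the same length. CCAAT, in 32% of them, occurred in EPGN at 63 bases and in EREG at 196 and 95 bases before the start. The AP-1 motif TGANTCA (6.57% of windows), the CRE motif TGACGTCA (1.65%) and the GC box GGGCGG (42.6%) were found in none of the 3 windows. A match is a description of letters and says nothing of binding.

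**Figure D3:**
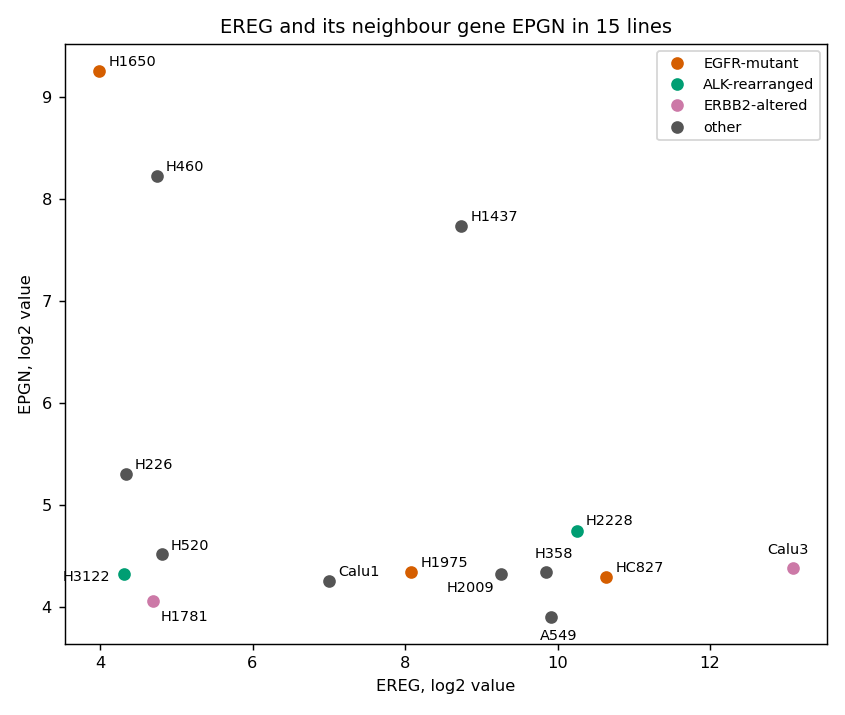
EREG (x axis) against its neighbour EPGN (y axis), log2 values, with 1 point per line and colours for the driver class. H1650 and H460 are high in EPGN and low in EREG, 8 lines are the other way round, and H1437 is high in both.

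EREG and BTC had the highest r of all pairs of measured ligands. It is a description over lines in which all ligands share each array, with values below background included. The next highest r values were 0.52 between HBEGF and NRG1 (rho 0.51) and 0.50 between EREG and NRG1 (rho 0.39). At the other end r was -0.49 between TGFA and EGF, with a rho of -0.01, and H460 was the lowest line in TGFA and the highest in EGF. H460 thus had EREG and TGFA below background and held the highest EGF and second highest EPGN value. Calu3 was highest in EREG, second in HBEGF and NRG1 and behind HC827 and H2228 in BTC, but had EPGN and EGF below background.

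The first comparison asked whether ligand levels differed between radioresistant and radiosensitive lines. None of the 7 ligands was called at an unadjusted limma p under 0.05 with an absolute log2 difference over 1, which is the limit used for a call throughout. Over all genes, 99 of 18132 (0.546%) were called. At an unadjusted p under 0.05 alone the count of ligands was also 0, by limma as by the exact permutation test over all 6435 splits. By limma, 577 of 18132 genes passed that limit, so a count of 0 among 7 says little about the ligands. The exact test was not run over all genes. After Benjamini-Hochberg adjustment over all genes, limma gave each ligand an adjusted p of 0.998. Of the 7, 5 had the higher mean and 2 the lower mean in radioresistant lines, and the median difference was 0.33, against -0.01 over all genes.

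EREG ran from 3.99 to 10.64 in radioresistant lines, with a median of 8.96, and from 4.34 to 13.08 in radiosensitive lines, with a median of 7.01. It was above background in 5 of 8 radioresistant and 4 of 7 radiosensitive lines. It averaged 7.72 ± 2.90 in radioresistant lines (SD, n = 8) and 7.42 ± 3.19 in radiosensitive lines (SD, n = 7), a difference of 0.30 (SE 1.49, two-sided exact permutation p = 0.848). With the 3 squamous lines left out the difference was -1.22, so that not even its sign was settled. HBEGF ran from 5.17 to 8.62 with a median of 6.40 in radioresistant lines, and from 5.58 to 10.19 with a median of 7.35 in radiosensitive lines. Its difference, -0.88 (SE 0.75, exact permutation p = 0.285), had the lowest p of the 7. Both HBEGF values near 10, in H226 and Calu3, belonged to radiosensitive lines.

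NRG1 averaged 7.53 ± 1.25 in radioresistant lines and 6.95 ± 1.35 in radiosensitive lines (SD, n = 8 and 7), a difference of 0.58 (SE 0.64, exact permutation p = 0.394). TGFA averaged 7.96 ± 1.82 in radioresistant lines and 8.46 ± 0.96 in radiosensitive lines (difference -0.50, SE 0.73), and without H460 the difference was 0.08. The differences of EPGN (0.49, SE 0.86), EGF (0.42, SE 0.74) and BTC (0.33, SE 0.43) were each smaller than their SE. With SE values of 0.43 to 1.49, a difference of 1 unit was under 2 SE for every ligand but BTC, and the result is not evidence of equal levels. The groups of all 7 ligands overlapped, and the share of all genes with overlapping groups is not given here.

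**Figure D4:**
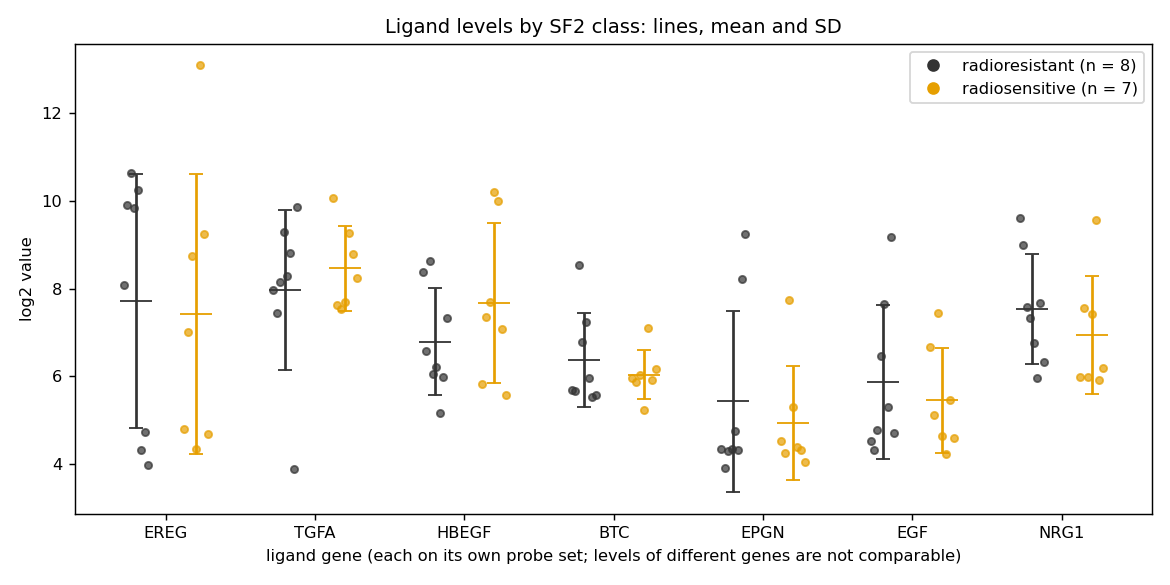
Log2 values of the 7 ligands in radioresistant (black, left, n = 8) and radiosensitive lines (orange, right, n = 7), with 1 point per line and bars for the mean and SD. The groups overlap for every ligand, and EREG spans 3.99 to 10.64 against 4.34 to 13.08.

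With SF2 as a continuous measure, 0 of the 7 ligands passed the same kind of threshold, an unadjusted limma p under 0.05 with a slope over 1 log2 unit between the lowest and the highest SF2 of the panel. Over all genes, 483 of 18132 (2.66%) passed. NRG1 came nearest, with a slope of 2.01 (SE 1.04, limma adjusted p = 0.998). Its r with SF2 over the 15 lines was 0.46 (permutation p = 0.0868) and its rho 0.45 (permutation p = 0.0953), both of 100000 permutations and out of 7 ligands examined. Without H1781 and H2009, the lines farthest from the median SF2, the r was 0.30. The slope depended on single lines in both directions. It was 1.24 without H1975 and 1.62 without A549, and neither passed the threshold. Without Calu3, which combined a low SF2 with 9.56 of NRG1, the slope was 2.90 and passed the threshold, and without H3122 it was 2.17 and passed it too. The r of the other 6 ligands lay between -0.18 and 0.15.

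The second comparison set the 3 EGFR-mutant lines against the 12 others. EGFR itself was 9.44 in H1975, 13.23 in HC827 and 10.36 in H1650, against 5.22 to 10.52 in the other lines, and was called higher (difference 2.55, SE 0.95, exact permutation p = 0.0286, limma adjusted p = 0.979). Without HC827 it was 1.44 and not called. Of the ligands, 0 of 7 were called (1.3% of all genes, 236 of 18132). None of the 7 had an unadjusted limma p under 0.05, against 801 of 18132 genes in all, so this count too says little about the ligands. An exact permutation p under 0.05 over 455 splits was reached by 0 ligands, and that test was not run over all genes. The adjusted limma p of the ligands lay between 0.979 and 0.999. EGF was 4.54 in H1975, 4.79 in HC827 and 4.72 in H1650, all below background, against 4.23 to 9.19 in the other 12 lines, of which 6 were above background. The difference was -1.25 (SE 0.88, exact permutation p = 0.202).

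HBEGF was 8.38, 8.62 and 7.33 in H1975, HC827 and H1650, against 5.17 to 10.19 with a median of 6.40 in the other lines, a difference of 1.14 (SE 0.93, exact permutation p = 0.279). All 3 EGFR-mutant lines were above that median, and the ranges overlapped. For the other ligands the 3 EGFR-mutant lines were unlike one another. EREG was 8.08, 10.64 and 3.99, BTC was 5.69, 8.55 and 5.58, EPGN was 4.34, 4.30 and 9.25, and NRG1 was 9.60, 7.59 and 6.33 in H1975, HC827 and H1650. EREG in HC827 was at least 33.7-fold above H1650, which was below background. TGFA was 7.96, 8.15 and 9.86 in these lines.

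**Figure D5:**
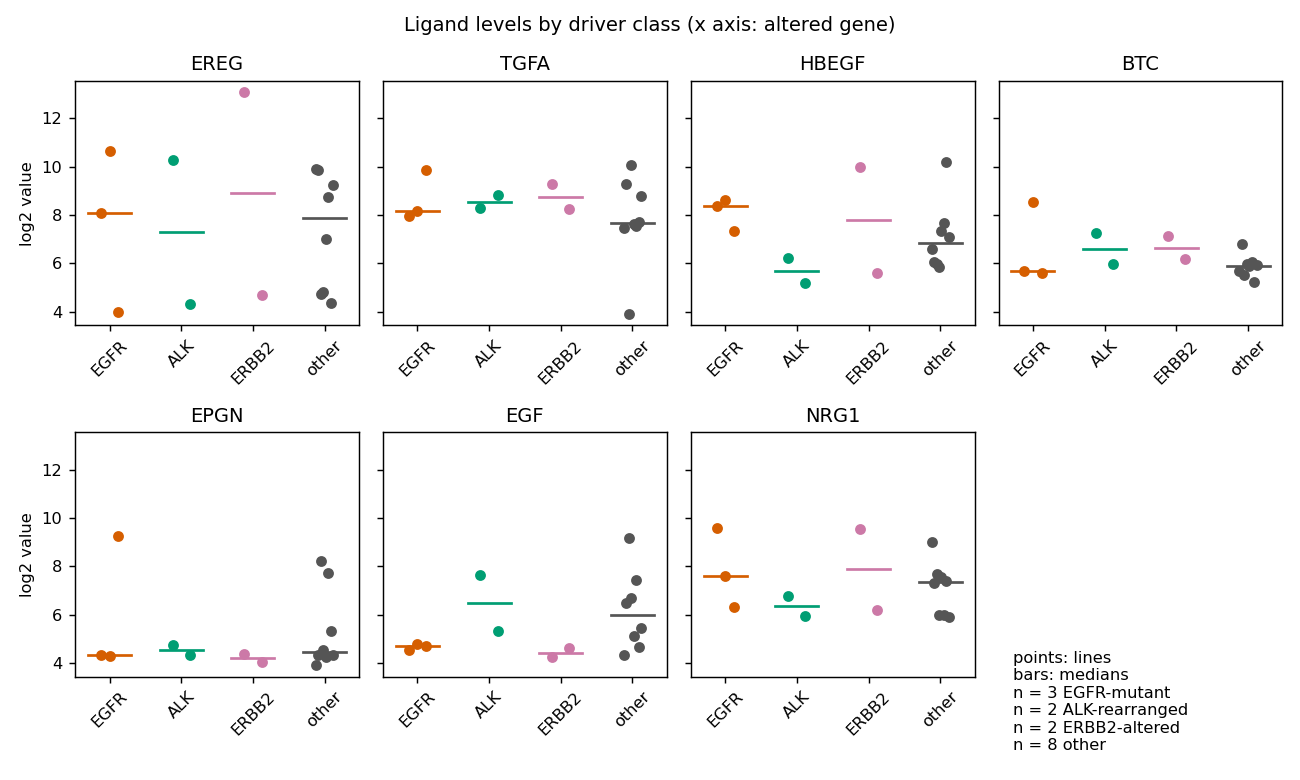
Log2 value of each ligand in the 4 driver classes (x axis), with 1 point per line and a bar at the class median. Each of the 3 classes of 2 or 3 lines holds a line with EREG above 10 and a line with EREG below background, and EGF is below background in all EGFR-mutant and ERBB2-altered lines.

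The ALK-rearranged and ERBB2-altered classes had 2 lines each and were described without a test. The 2 lines of a class differed widely in EREG, with 10.26 in H2228 against 4.32 in H3122, both ALK-rearranged, and 13.08 in Calu3 against 4.70 in H1781, both ERBB2-altered. HBEGF and NRG1 followed in the second pair, with 9.99 and 9.56 in Calu3 and 5.58 and 6.20 in H1781. TGFA differed less, with 8.29 and 8.81 in H2228 and H3122, and 9.27 and 8.25 in Calu3 and H1781. In each pair the line low in EREG was the one with the high 3′ to 5′ actin ratio. Whether that ratio played a part was not tested.

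The receptors and the rest of the pathway give the setting in which the ligands were found. Of the 4 receptors, EGFR was above background in 14 lines, all except H520 (5.22), ERBB2 in 15 and ERBB3 in 11. ERBB4, the shared receptor of HBEGF, BTC, EREG and NRG1, was above background in 1 line, Calu3 (7.93). H520, the line highest in TGFA, was therefore the line with EGFR below background. ERBB3, the main receptor of NRG1, was below background in H1975 (4.70) and A549 (5.12), both among the top 3 lines in NRG1, and was 10.14 in Calu3, the other of the 3. ADAM17, the main sheddase of TGFA, AREG, EREG and HBEGF, was above background in all 15 lines (9.003 to 10.68), as was ADAM10 (7.49 to 10.00), which cuts EGF and BTC. TIMP3, an inhibitor of ADAM17, ran from 3.76 to 12.60 and was highest in Calu3. Of the 9 shedding and trafficking genes, 0 were called in either of the 2 class comparisons (0.546% and 1.3% of all genes).

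Of 16 genes that report on MAPK output, 0 were called between the SF2 classes (0.546% of all genes were). In EGFR-mutant lines 2 of the 16 were called lower, as were 79 of 18132 genes in all (0.436%). They were DUSP6, a phosphatase of ERK (difference -2.20, exact permutation p = 0.0549), and ETV5, a transcription factor induced by ERK (-1.38, exact permutation p = 0.0242). DUSP6 was not called in 9 of 15 fits that each left out 1 line, with differences of -3.63 to -1.39, and ETV5 was -1.05 and not called without HC827. The median difference of the 16 in that comparison was -0.22, against -0.03 over all genes. Of 6 genes that restrain the receptors, CBLB, a ubiquitin ligase, was called lower in EGFR-mutant lines (-1.40, exact permutation p = 0.022), and LRIG1, which promotes the loss of ERBB receptors, was called lower in radioresistant lines (-2.30, limma adjusted p = 0.998), as were 39 of 18132 genes in all (0.215%). CBLB was not called without H1975 (-1.17), on its second brightest probe set (-1.10) or with the mean of all its probe sets (-0.70). LRIG1 averaged 5.68 ± 1.66 in radioresistant lines and 7.98 ± 1.56 in radiosensitive lines (SD, n = 8 and 7; two-sided exact permutation p = 0.0186), and on its second brightest probe set the difference was -0.93, under the fold limit.

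The genes whose pattern over the 15 lines was most like that of each ligand were named by the highest r among 7137 genes with a range of at least 2 log2 units. Such maxima over so many genes and 15 lines are high by selection, and no p is given. For EREG they were CLDN23 (r = 0.90), a claudin of epithelial junctions, ACSM3 (0.83), C1orf116 (0.82), GPR39 (0.81) and ANKRD30BP2 (0.80), the first 3 of which also peaked in Calu3. For TGFA, SHROOM3 (0.86), a regulator of epithelial cell shape, and DSP (0.80), a desmosome protein, led. For HBEGF the first were STARD13 (0.86), EFNB1 (0.84) and DPP4 (0.83), and all 5 named genes peaked in H226. For BTC, HNF4G (0.92), a nuclear receptor of gut epithelium, led, followed by BCL2L15 (0.85) and SPINK1 (0.81), and all 5 peaked in HC827. For EPGN, MYPN and XYLT1 (both 0.90) had a rho of 0.37 and 0.30, so that these values rest on the few lines in which EPGN was high. For EGF, GLDN (0.90) and SAMD5 (0.86) led, and for NRG1 the first was DOCK10 (0.83, rho 0.90).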

How the data were processed

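The authors had deposited log2 values for each probe set, made by RMA (affy 1.64.0 in the submitters' processing notes) from 1 PrimeView array per line. RMA equalises the arrays' distributions and compresses low signals. Sources disagree on labelling: biotin, with single lines, in the sample labels, and Cy3 or Cy5 with a reference RNA in the methods. No ratio to a reference is in the values used. Array precision is limited by the number of arrays. Of 49293 probe sets without controls, 44988 were annotated to 1 gene, and the brightest by mean over the lines was used for each of 18132 genes.

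Groups were compared with limma 3.58.1 (lmFit and eBayes, R 4.3.3) over all genes, with Benjamini-Hochberg adjustment and two-sided exact permutation tests over all splits (Python 3.11.15, numpy 2.4.6, scipy 1.17.1). The fit was tested on simulated data, where 49.5% of 200 genes changed by 1 log2 unit and 96.5% of 200 changed by 2 were called between the 8 radioresistant and 7 radiosensitive lines among 18132 genes. A call needs an absolute difference over 1. At a true change of 1 that limit alone holds the rate down, so 49.5% is not a measure of power. These rates do not carry over to the ligands, whose SDs over the lines (0.86 to 2.93) were above the median of all genes (0.46). The alternatives covered probe sets, scaling, weights, moderation, dim genes, histology, lines and SF2 as a continuous measure. Named genes were the ligands, the genes used to check lines, context-list genes called in a comparison or shown as values, and the 5 genes most like each ligand. Not every such gene is printed. The members and lists were chosen with earlier results of these data known. Promoter letters are RefSeq's (GRCh38.p14). The study's molecular table was not used here, and one planned comparison of driver classes is not reported here.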

Additional observations from a re-analysis of the deposited data

Results flagged for a closer look

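In 14 pairs of a ligand and an SF2 class, 2 had a highest or lowest line set apart by a gap too wide for Dixon's 95% limit. Chance gives such a gap in about 1 of 20 pairs only if the values are normally distributed. That rate need not hold where some lines lie below background, as in both flagged pairs. TGFA in H460 was 3.89, against 7.45 in the next lowest of the 8 radioresistant lines. On the 3 dimmer TGFA probe sets H460 was also the lowest of the 8, but by 0.09, 0.11 and 0.16 log2 units only. EPGN in H1437 was 7.73, against 5.30 in the next highest of the 7 radiosensitive lines. Each of these lines held 1 array, and all 8 EPGN probe sets had the same top 3 lines, H1437 among them.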

How the results depend on the processing

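Between the SF2 classes and between EGFR-mutant and other lines the count of called ligands was 0 under every alternative run. Some alternatives changed only the form of the test, the moderation or the set of genes fitted, so the differences there could not change sign. Counted with these, there were 196 ligand differences and slopes under alternatives that kept all lines or left out a class or pair of lines. Of the 196, 184 kept their sign and side of the threshold and 12 changed sign, and the cause was not tested. For radioresistant minus radiosensitive, EREG was -1.22 without the squamous lines and -1.15 in adenocarcinoma lines alone, and EPGN was -0.018 on SF2 as a continuous predictor. For EGFR-mutant minus other lines, EREG was 0.29 with the mean of all probe sets, 0.81 on the second brightest and 0.0033 with array weights. For the slope on SF2, EPGN was 0.064, 0.26 and 0.081 with the mean of all probe sets, the second brightest and adenocarcinoma lines alone, HBEGF was 0.033 without the squamous lines and 0.36 in adenocarcinoma lines alone, and EGF was -0.20 without H1781 and H3122.

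Leaving out each line in turn changed the sign of several differences. The ranges for radioresistant minus radiosensitive were EREG -0.21 to 1.25, TGFA -0.77 to 0.0831, EPGN -0.0559 to 0.96, EGF -0.0535 to 0.75. BTC (0.023 without HC827 to 0.51 without Calu3), HBEGF (-1.23 without H1781 to -0.46 without H226) and NRG1 (0.29 without H1975 to 1.02 without Calu3) kept their sign. For EGFR-mutant minus other lines they were EREG -1.55 to 1.78, TGFA -0.0269 to 0.92, BTC -0.49 to 0.996, EPGN -0.69 to 1.78, NRG1 -0.15 to 1.48. For the slope on SF2 they were HBEGF -1.44 to 0.47, BTC -0.25 to 0.77, EPGN -0.72 to 0.54, EGF -0.24 to 1.05, and the count of called slopes was 0 to 1. The NRG1 slope was 1.24 without H1975 to 2.90 without Calu3. In the EGFR comparison, EPGN and TGFA changed sign without H1650, BTC without HC827 and NRG1 without H1975. Of the calls among the context genes, DUSP6 was lost in 9 of 15 such fits, CBLB, ETV5 and EGFR in 1 each and LRIG1 in 0. CBLB was also lost on its second brightest probe set and with the mean of all its sets, LRIG1 on its second brightest set, LRIG1, ETV5 and DUSP6 in adenocarcinoma lines alone, and DUSP6 with array weights, without the squamous lines and without H1781 and H3122.

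With the 99th percentile of the olfactory receptor genes as the bound (6.46 to 6.84), a choice made after the data were seen, HBEGF was above it in 8 lines, BTC in 4, EGF in 3 and NRG1 in 9. No paired analysis was possible because each line had 1 array and the labels give no numbers that pair lines across groups.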
